A study of Mus musculus with 12 samples.

Results

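Genes of the endoplasmic reticulum (ER) stress response and the integrated stress response were followed in the brains of SCA1 KI and WT mice. They were taken by symbol from the deposited table of gene-level normalized counts (Atf6, Ern1, Eif2ak3, Xbp1, Atf4, Atf5, Ddit3, Trib3 and Herpud1). All 9 of 9 were among the 15759 entries of the table, and all 9 passed the filter of a mean of 10 normalized counts that left 15369 genes to be tested. RNA came from whole cortex and whole cerebellum of mice aged 12 weeks, and each of the 4 combinations of region and genotype had 3 libraries. SCA1 KI mice carry 154 glutamine codons in 1 allele of the endogenous Atxn1 gene and 2 in the other, on the C57BL/6J background, and WT mice were littermates without the expansion. The knock-in acts wherever Atxn1 is normally expressed, with no Cre or transgene promoter to limit it to a cell type. The labels list male mice, whereas the study's methods describe both sexes combined. The libraries carry a letter or number of their own in the deposited table, which is used here: B, C and D for WT cortex, A, E and F for SCA1 KI cortex, 2, 4 and 6 for WT cerebellum, and 1, 3 and 5 for SCA1 KI cerebellum. Nothing in these names ties a cerebellum to a cortex of the same mouse.

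The ER folds secreted and membrane proteins, and unfolded protein in its lumen is sensed by 3 membrane proteins. ATF6 is cleaved to release a transcription factor, IRE1 (encoded by Ern1) is a kinase and ribonuclease that splices Xbp1 mRNA, and PERK (encoded by Eif2ak3) is a kinase that phosphorylates the translation factor eIF2 on its alpha subunit. Phosphorylated eIF2 lowers protein synthesis in general and favours translation of ATF4, the point at which the ER arm joins the integrated stress response, which other eIF2 kinases start from viral RNA, lack of amino acids or lack of heme. Downstream lie CHOP (encoded by Ddit3), Trib3 and the degradation factor Herpud1. In neurons this response is known from many disorders of misfolded protein, and SCA1, in which ataxin-1 carries an expanded polyglutamine tract, belongs to that family of diseases. Counts of mRNA per gene measure none of the cleavage, splicing, phosphorylation or translation steps, so the values below are levels of transcripts and not of pathway activity.

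Reads on genes numbered 29520855 to 51311309 per library, so every member except Trib3 rested on at least 207 reads in each library, and Trib3 had 14 to 92. Replicates differed beyond sampling noise in each group, and SCA1 KI cortex library A stood farthest from its replicates (chi-square of the reads per gene 32.2 against library E and 35.6 against library F, with 10.3 between E and F). Library A also had the highest summed level of 6 midbrain and thalamus markers (1403 normalized counts, against 752 and 847 in E and F and 117 to 134 in WT cortex). Results in the cortex are therefore given without library A where that changes them. Since E and F also stood above WT cortex for these markers, leaving out A does not remove that difference between the genotypes. The tissues carried their own markers: 6 granule cell genes summed to 131879 to 187998 normalized counts in the cerebellum and 3216 to 4155 in the cortex, and 6 genes of cortical excitatory neurons to 57025 to 85296 in the cortex and 13719 to 22077 in the cerebellum. The study describes the cerebellar data as published before by the same laboratory, so a difference between regions and a difference between datasets cannot be told apart. Atxn1, the targeted gene, had 7370 ± 815 (SD, n = 3) normalized counts in WT cortex and 6040 ± 1337 (SD, n = 3) in SCA1 KI cortex. Its log2 fold change (LFC) was −0.31 in the cortex (adjusted p = 0.132 from limma) and 0.08 in cerebellum (adjusted p = 0.837 from limma), and counts per gene do not show the length of the repeat. Leaving out SCA1 KI library E took the cortical LFC of Atxn1 past the threshold (−0.45, adjusted p = 0.0248 from limma), whereas leaving out library A brought it to −0.12 (adjusted p = 0.423 from limma), and the correction for transcript length and GC content brought it to −0.14.

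**Figure D1:**
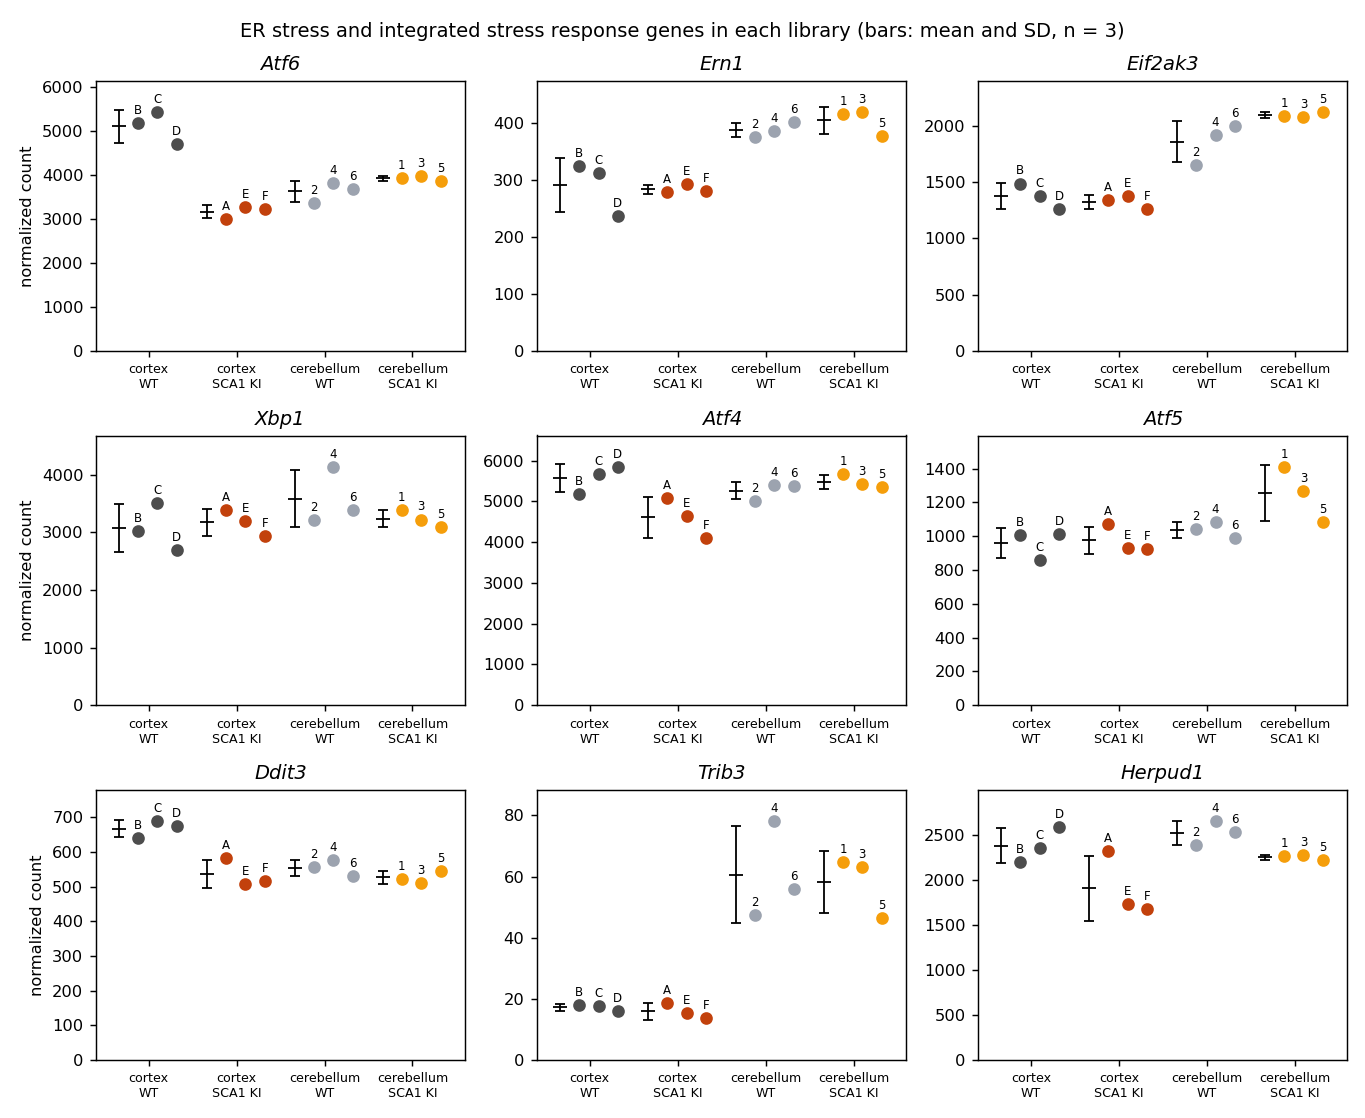
Normalized counts of the 9 genes (y axes, each from 0) in the 4 groups of region and genotype (x axes). Points are single libraries with their letter or number, and bars are the mean and SD of the 3 libraries of a group. Atf6 in SCA1 KI cortex (2991 to 3260) lay below all other libraries, and Trib3 was at 13.5 to 18.7 in the cortex and at 46.5 to 78.2 in the cerebellum.

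Per kilobase of exon, Atf4 was the most abundant of the 9 transcripts in each group, with means of 1953 to 2362 normalized counts per kb. Xbp1 and Herpud1 followed, between 818 and 1104 per kb, and their order turned between WT cortex, where Herpud1 was ahead (1020 against 947 per kb), and the other 3 groups. Atf5, Atf6, Ddit3 and Eif2ak3 formed a middle range from 220 to 629 per kb. Ern1 was at 34.7 to 49.5 per kb and Trib3, an inhibitory pseudokinase induced by ATF4 and CHOP, was lowest at 7.44 to 28.5 per kb. Exon lengths came from GENCODE vM21 and cover all annotated exons of a gene, including those not used in these tissues.

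In the cortex the comparison asked whether these genes differed between the genotypes at 12 weeks. Of the 9, 3 had less RNA in SCA1 KI cortex and none had more: Atf6 fell by 38.0% (LFC −0.69), Ddit3 fell by 19.8% (LFC −0.32) and Atf4 fell by 17.5% (LFC −0.28). The other 6 genes did not pass the test. Differentially expressed genes (DEGs) were called in a limma fit of all tested genes where the Benjamini-Hochberg adjusted p was under 0.05 and the LFC beyond 0.25 in either direction. By this rule 15.6% of all tested genes were DEGs in the cortex, 4.82% higher and 10.8% lower. The same 3 members were those whose SCA1 KI libraries all lay below all WT libraries, as for 18.0% of tested genes, and no member had all of them above WT, as 13.0% of tested genes had. The median LFC of the 9 genes was −0.12, against −0.0028 over all tested genes.

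Atf6, the sensor that is itself a transcription factor, is on the minus strand of chromosome 1 (GRCm38, 170704674 to 170867771), and no other annotated exon overlaps its exons. It had 5179, 5422 and 4693 normalized counts in WT cortex libraries B, C and D. In SCA1 KI cortex libraries A, E and F it had 2991, 3260 and 3218. The groups lay far apart, with each SCA1 KI library at least 1433 normalized counts below the lowest WT library. The means were 5098 ± 371 and 3156 ± 145 (SD, n = 3 each), and the LFC of −0.69 (standard error 0.067, 95% interval −0.84 to −0.54) had an adjusted p of 3.05e-05 from limma. By its p, Atf6 ranked 84 among the 15369 genes tested in the cortex. The LFC of Atf6 stayed between −0.75 and −0.64 when single libraries were left out (adjusted p at most 2.80e-04 from limma), and with SCA1 KI library A left out the LFC was −0.65. It was −0.59 after a correction of every library for transcript length and GC content.

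Ddit3 encodes CHOP, a transcription factor that drives the apoptotic side of prolonged ER stress. Its normalized counts were 641, 690 and 674 in WT cortex and 583, 508 and 517 in SCA1 KI cortex, library A being the highest of the latter. The groups did not overlap. The LFC of Ddit3 was −0.32 (standard error 0.078, 95% interval −0.49 to −0.15, adjusted p = 0.0133 from limma). This call was lost without WT library C (adjusted p = 0.0505 from limma), without SCA1 KI library E (adjusted p = 0.05001 from limma), and with the cortex fitted alone (adjusted p = 0.0721 from limma). It was kept with edgeR (adjusted p = 0.0201) and with DESeq2 (adjusted p = 0.00285). Exons of Ddit3 on chromosome 10 (127290774 to 127296288, GRCm38, plus strand) share 68 bases with Mars, 13 with Gm4189 and 105 with another entry of the same symbol, and use of strand in the counting was not given in the sources used here.

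Atf4, the central transcription factor of the integrated stress response, lies on chromosome 15 from 80255184 to 80257541 (GRCm38, plus strand). It had 5188, 5666 and 5853 normalized counts in WT cortex and 5082, 4636 and 4096 in SCA1 KI cortex. The gap between the groups was narrow, since SCA1 KI library A came within 106 normalized counts of WT library B. The LFC of Atf4 was −0.28 (standard error 0.076, 95% interval −0.44 to −0.11, adjusted p = 0.0241 from limma), and it was −0.35 without library A (adjusted p = 0.00595 from limma). The call was lost without WT library C (LFC −0.26), WT library D (−0.24) or SCA1 KI library F (−0.20), with adjusted p from 0.0747 to 0.0855 from limma. It was also lost with the cortex fitted alone (adjusted p = 0.100 from limma) and after removal of the trend on length and GC content (LFC −0.24, adjusted p = 0.0589 from limma). The call was kept with edgeR (adjusted p = 0.0397) and with DESeq2 (adjusted p = 0.00715).

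Herpud1, an ER membrane protein that takes part in the degradation of misfolded protein, missed the threshold at an adjusted p of 0.0502 (limma). Its normalized counts were 2195, 2356 and 2589 in WT cortex and 2323, 1730 and 1670 in SCA1 KI cortex. Library A lay inside the WT range, and the other 2 SCA1 KI libraries lay below it. With all libraries the LFC of Herpud1 was −0.33 (standard error 0.107, 95% interval −0.56 to −0.10). Leaving out SCA1 KI library A gave −0.48 (adjusted p = 0.00114 from limma) and leaving out WT library B gave −0.39 (adjusted p = 0.0482 from limma), and both passed. DESeq2 (adjusted p = 0.0340), a minimum mean of 100, a pseudocount of 5 and the correction for length and GC content (adjusted p = 0.0354 to 0.0489 from limma) also made the call, and edgeR did not (adjusted p = 0.0868).

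**Figure D2:**
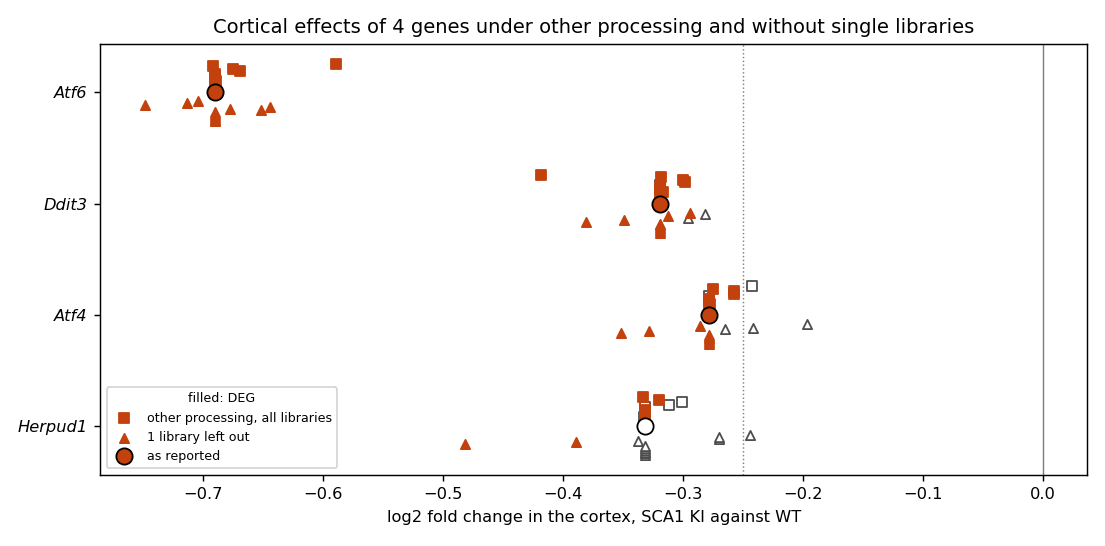
LFC of Atf6, Ddit3, Atf4 and Herpud1 in the cortex (x axis, SCA1 KI against WT, log2) as reported (circles), under other processing with all libraries (squares) and with 1 library left out (triangles). Filled symbols were DEGs, the dotted line marks −0.25, and Atf6 stayed between −0.75 and −0.59 throughout.

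The remaining 5 genes of the cortex did not pass, and their groups overlapped. Eif2ak3 had an LFC of −0.05 (95% interval −0.23 to 0.12), with 1265 to 1489 normalized counts in WT and 1259 to 1376 in SCA1 KI libraries. For Ern1 the LFC was −0.02 (95% interval −0.27 to 0.23), and WT library D stood low at 236 beside 324 and 312 in B and C. Xbp1, the transcription factor made from the IRE1-spliced mRNA, had an LFC of 0.05 (95% interval −0.18 to 0.28) with overlapping libraries. Atf5, which responds to the same eIF2 signal as Atf4 and is best known for its part in the mitochondrial stress response, had an LFC of 0.03 (95% interval −0.20 to 0.25). Trib3 rested on 14 to 19 reads per cortex library, and its LFC of −0.12 had a 95% interval of −0.63 to 0.39, wide enough to hold changes of the size seen for Ddit3 and Atf4.

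Levels of cell type markers moved in the same cortex libraries. Among 6 markers each, 4 of astrocytes were DEGs and lower in SCA1 KI cortex (summed level 37706 to 47675 normalized counts, against 54658 to 61210 in WT), as were 2 of cortical excitatory neurons (57025 to 67339 against 83478 to 85296). Of the midbrain and thalamus list, 3 of 6 were DEGs and higher (752 to 1403 against 117 to 134), with Shox2, Sox14 and Barhl1 at 0 in all WT cortex libraries. Microglia (13177 to 13832 against 13222 to 14316) and oligodendrocyte lists had no DEG, nor had those of granule cells, endothelium and choroid plexus. WT library B had a high oligodendrocyte sum (135047, against 85294 and 79162 in C and D) and choroid plexus sum (1754, against 281 and 294). Of 6 Purkinje cell markers, some of which cortical neurons express too, 3 were DEGs and lower and 1 higher (25050 to 29157 against 42452 to 45485). The median LFC of the midbrain and thalamus list was 2.36. The part of these marker differences in the lower levels of Atf6, Ddit3 and Atf4 was not tested. In bulk tissue fewer cells of a type, less RNA per cell and a difference in the tissue dissected cannot be told apart.

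In the cerebellum, the tissue most affected in SCA1, the same comparison gave no DEG among the 9 genes, where 5.36% of all tested genes were DEGs (0.917% higher and 4.44% lower). edgeR and DESeq2 also called 0 of 9. Atf5 and Eif2ak3, 2 of the 9, had an unadjusted p under 0.05, with LFCs above 0, where 17.3% of all tested genes had such a p in the cerebellum and 30.5% in the cortex. All 3 SCA1 KI libraries lay above all WT libraries for Atf5, Eif2ak3 and Atf6, as for 14.3% of tested genes, and below them for Herpud1, as for 17.5% of tested genes. The median LFC of the 9 genes was 0.06, against −0.0049 over all tested genes.

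Atf5 had the largest cerebellar LFC of the 9 genes in size, 0.27 (95% interval 0.04 to 0.49, adjusted p = 0.186 from limma). Its normalized counts were 1042, 1082 and 988 in WT cerebellum and 1412, 1266 and 1083 in SCA1 KI cerebellum. The lowest SCA1 KI library, 5, stood 1.10 above the highest WT library, 4, so the groups were separated by next to nothing at that end. Without SCA1 KI library 1 the LFC of Atf5 was 0.18. With the trend on length and GC content removed Atf5 became a DEG (LFC 0.41, adjusted p = 0.0215 from limma), and exons of Atf5 on chromosome 7 (44812256 to 44816658, GRCm38, minus strand) share 82 bases each with Nup62 and Il4i1.

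For Eif2ak3 the cerebellar normalized counts were 1656, 1924 and 2005 in WT and 2087, 2078 and 2125 in SCA1 KI libraries, with WT library 2 lowest. The LFC of Eif2ak3 was 0.18 (95% interval 0.0016 to 0.35, adjusted p = 0.284 from limma), and 0.094 without WT library 2 (adjusted p = 0.737 from limma). Atf6 had 3363, 3813 and 3682 normalized counts in WT and 3929, 3973 and 3861 in SCA1 KI cerebellum, close but not overlapping groups. Its cerebellar LFC was 0.12 (95% interval −0.03 to 0.26, adjusted p = 0.413 from limma), an interval that leaves out a fall of the size seen in the cortex, and the LFC was 0.065 without WT library 2. Herpud1 was at 2382, 2654 and 2531 in WT and 2260, 2275 and 2216 in SCA1 KI libraries, an LFC of −0.16 (adjusted p = 0.497 from limma) that was −0.058 after the correction for length and GC content. Atf4, Ddit3, Ern1, Trib3 and Xbp1 had overlapping groups and LFCs from −0.14 to 0.06. For Atf4 the 95% interval ran from −0.11 to 0.22 and for Ddit3 from −0.24 to 0.10.

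In the cerebellum, 5 of the 6 midbrain and thalamus markers were DEGs and lower in SCA1 KI. The median LFC of the 6 was −3.49. Their summed level fell less, to 680 to 803 against 987 to 1408 in WT, and it includes Barhl1, which was not a DEG. Choroid plexus markers spread widely within both groups, from 825 to 75606 normalized counts in SCA1 KI and from 19497 to 72614 in WT cerebellum, and WT library 2 had the highest oligodendrocyte sum (266831, against 178046 and 198047 in the other WT libraries). Aldh1l1 of the astrocyte list and P2ry12 of the microglia list were lower DEGs, Tbr1 of the cortical neuron list was a higher one, and the remaining lists, Purkinje cells included, had none. No member was a DEG here, and the part of these markers in the values above was not tested.

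**Figure D3:**
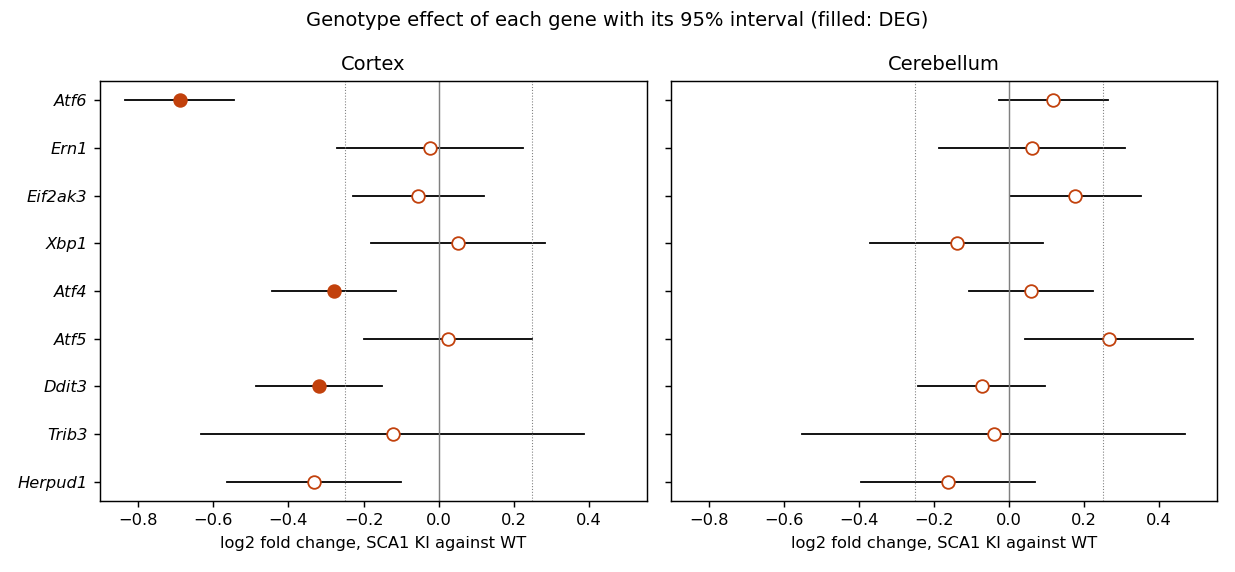
LFC of the 9 genes (x axes, SCA1 KI against WT, log2) in the cortex and in the cerebellum, with their 95% intervals from limma as lines and the limits of ±0.25 dotted. Filled circles are DEGs: Atf6 (−0.69), Ddit3 (−0.32) and Atf4 (−0.28) in the cortex and none in the cerebellum.

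Whether the genotype effect differed between the regions was tested with the interaction term of the same fit. It passed for 1 of the 9 genes, Atf6, and for 8.15% of all tested genes (4.89% with the more negative effect in the cortex). The cortical effect of Atf6 minus its cerebellar effect was −0.81 (standard error 0.095, 95% interval −1.01 to −0.60, adjusted p = 5.44e-04 from limma), which ranked it 39 of 15369. Put as levels, Atf6 was highest in WT cortex, then SCA1 KI cerebellum, then WT cerebellum, and lowest in SCA1 KI cortex. Neighbouring groups in this order did not overlap. The midbrain and thalamus markers also changed in opposite directions in the 2 regions (median LFC 2.36 in the cortex and −3.49 in the cerebellum). Their part in the interaction was not tested. For Atf4 the difference was −0.34 (adjusted p = 0.0794 from limma) and passed without SCA1 KI cortex library A (−0.41, adjusted p = 0.0212 from limma), with DESeq2 (adjusted p = 0.0420) and with the trend on length and GC content removed (−0.42, adjusted p = 0.0381 from limma). Ddit3 had −0.25 (adjusted p = 0.218 from limma) and passed with that trend removed (−0.40, adjusted p = 0.0277 from limma).

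More of the 9 genes were DEGs between the regions than between the genotypes, as held for all tested genes. In WT mice 5 of 9 were DEGs, where 61.7% of all tested genes were (31.0% with more and 30.7% with less RNA in the cortex). Atf6 (LFC 0.49) and Ddit3 (0.27) were higher in WT cortex than in WT cerebellum, and Trib3, Eif2ak3 and Ern1 were lower. In SCA1 KI mice 6 of 9 were DEGs, all lower in the cortex, beside 62.4% of all tested genes, of which 32.0% were higher and 30.5% lower. These 6 were Atf4, Atf5, Atf6, Eif2ak3, Ern1 and Trib3. The regional order of Atf6 thus turned between the genotypes, from an LFC of 0.49 in WT (adjusted p = 2.60e-05 from limma) to −0.31 in SCA1 KI mice (adjusted p = 0.00106 from limma). After the correction for length and GC content the latter was −0.20, under the limit for a DEG. That of Ddit3 went from 0.27 (adjusted p = 0.00801 from limma) to 0.02 (adjusted p = 0.801 from limma).

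Trib3 had the largest regional difference of the 9. It was at 17.8, 17.7 and 15.9 normalized counts in WT cortex and at 47.5, 78.2 and 55.9 in WT cerebellum. In SCA1 KI mice it was at 18.7, 15.2 and 13.5 in the cortex and at 64.9, 63.2 and 46.5 in the cerebellum. The regions stood apart in both genotypes, with LFCs of −1.73 (adjusted p = 2.62e-05 from limma) and −1.81 (adjusted p = 1.64e-05 from limma), while the genotypes overlapped in both regions. The 2 kinase sensors shared the direction: Eif2ak3 had LFCs of −0.43 in WT and −0.66 in SCA1 KI mice, and Ern1 had LFCs of −0.43 and −0.51. Without WT cortex library D the LFC of Ern1 in WT mice was −0.28. Herpud1 in SCA1 KI cortex against SCA1 KI cerebellum had an LFC of −0.25 that missed the threshold (adjusted p = 0.0505 from limma), and it passed without SCA1 KI cortex library A (−0.40, adjusted p = 4.00e-04 from limma), without WT cortex library D, with a pseudocount of 5 and with the trend on length and GC content removed (−0.46, adjusted p = 0.00113 from limma). Xbp1 did not pass in either genotype, although in WT mice it passed without cortex library C (−0.32, adjusted p = 0.0196 from limma) or cerebellum library 2 (−0.30, adjusted p = 0.0372 from limma), and with the trend on length and GC content removed (−0.32, adjusted p = 0.0301 from limma). Removal of that trend also made Atf5 a DEG in WT mice (from −0.12 to −0.41, adjusted p = 0.00233 from limma). In SCA1 KI mice it took the regional LFC of Atf5 from −0.36 to −0.72 and that of Atf4 from −0.25 to −0.46. Ddit3 in WT mice fell under the limit of 0.25 without cortex library C (LFC 0.246) or cerebellum library 6 (LFC 0.238), and with edgeR (LFC 0.243). Atf4 in SCA1 KI mice did so without cortex library F (−0.17) or cerebellum library 1 (−0.23), with DESeq2 (−0.249) and with each region centred on its median (−0.246).

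A wider set of 113 genes in 8 lists gave the surroundings of these 9 genes: ER chaperones, ER-associated degradation, the eIF2 pathway, targets of ATF4 and CHOP, aminoacyl-tRNA synthetases, further ER stress sensors, the mitochondrial stress response and translocation into the ER. Of these genes 109 were in the table and 108 were tested. In the cortex 4 of 108 were DEGs, 1 higher and 3 lower, a share of 3.70% beside 15.6% of all tested genes. In the cerebellum 1 of 108 was a DEG, a share of 0.926% beside 5.36%. Medians of the LFC over all lists were −0.0065 in the cortex and −0.0010 in the cerebellum. The interaction term passed for 1 of 108, Spcs3.

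**Figure D4:**
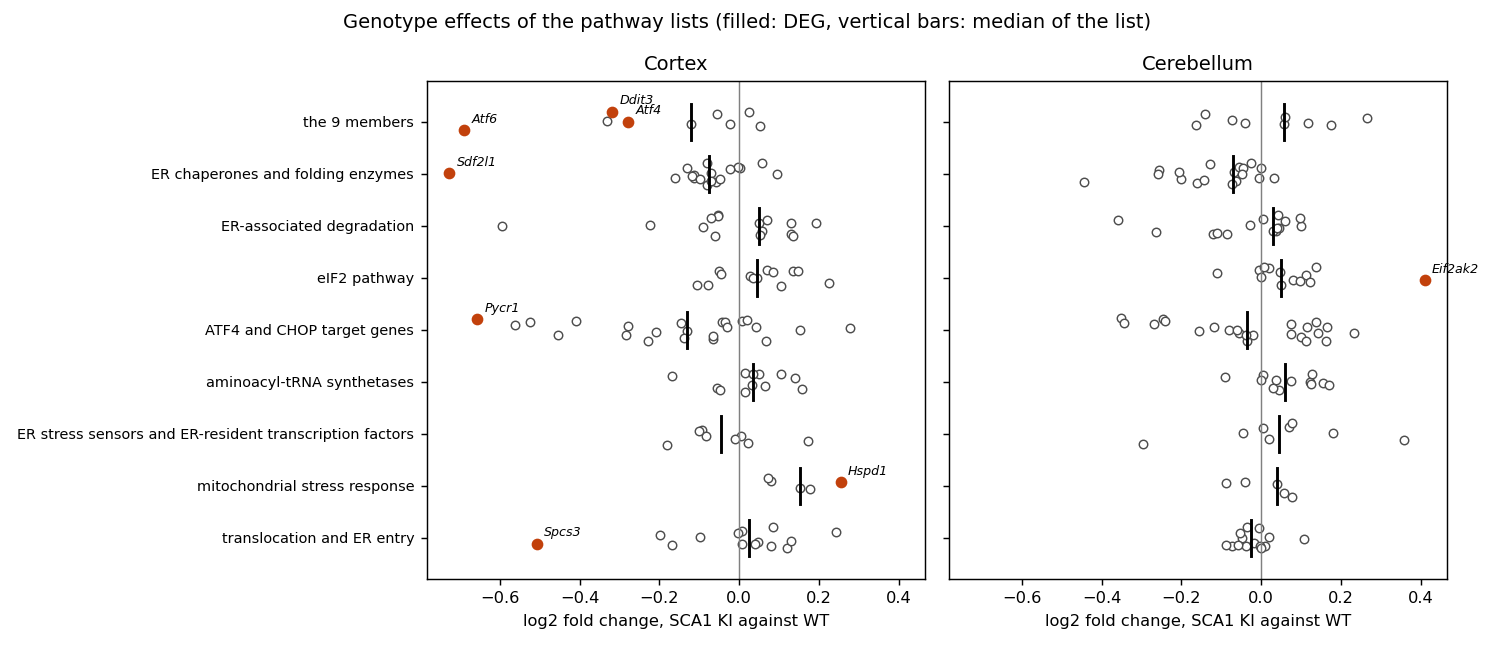
LFC (x axes, SCA1 KI against WT, log2) of the 9 genes and of the tested genes of the 8 pathway lists (rows, points spread vertically for legibility) in the cortex and in the cerebellum. Vertical bars are medians of a list and filled points are DEGs, of which the lists held 4 in the cortex and 1 (Eif2ak2, 0.41) in the cerebellum.

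ER chaperones and folding enzymes are the classic products of the ATF6 and XBP1 arms. Of 18 tested, 1 was a DEG in the cortex and none in the cerebellum, where 2 had an unadjusted p under 0.05. In the cortex 15 of the 18 LFCs were below 0 and in the cerebellum 17 of 18, with medians of −0.08 and −0.07. Medians over all tested genes were −0.0028 and −0.0049, and 56 of the 108 genes of all lists were below 0 in each region. These signs are not independent, since 14 of the 18 were highest in WT cortex library C and 13 in WT cerebellum library 4. The DEG was Sdf2l1, an ER-lumenal protein that works with the chaperone BiP. It was at 252, 337 and 254 normalized counts in WT cortex and at 164, 161 and 179 in SCA1 KI cortex, all below WT (LFC −0.73, standard error 0.146, adjusted p = 0.00427 from limma). Sdf2l1 also had in the cerebellum all SCA1 KI libraries below WT, with an LFC of −0.45 that did not pass (adjusted p = 0.110 from limma). Hspa5, which encodes BiP, the main ER chaperone and the usual marker of ER stress, was added after its values were seen. It had 8668, 10540 and 6755 normalized counts in WT cortex and 8071, 8259 and 8387 in SCA1 KI cortex, and the wide WT spread held the SCA1 KI libraries inside it. Its LFC was −0.05 in the cortex (95% interval −0.35 to 0.26) and −0.21 in the cerebellum (95% interval −0.51 to 0.10), where all SCA1 KI libraries (8539 to 8642) lay below WT (8913, 8933 and 12163). Without WT cerebellum library 4 the latter was −0.056. Without WT cortex library C the cortical LFC of Hspa5 was 0.11.

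Targets of ATF4 and CHOP, mostly genes of amino acid synthesis and transport, held 1 DEG of 23 tested in the cortex and none in the cerebellum, where 3 had an unadjusted p under 0.05. Cortical LFCs were below 0 for 17 of the 23, with a median of −0.13 (−0.0028 over all tested genes). Cerebellar LFCs were below 0 for 13 of the 23, with a median of −0.04. The cortical signs are not independent, since 16 of the 23 were highest in library D among WT cortex libraries. The DEG was Pycr1, a mitochondrial enzyme of proline synthesis, at 41.6, 45.4 and 51.2 normalized counts in WT cortex and 36.5, 23.3 and 27.9 in SCA1 KI cortex. All SCA1 KI libraries were below WT (LFC −0.66, adjusted p = 0.0428 from limma), but the call was lost with edgeR (adjusted p = 0.0594), with DESeq2 (adjusted p = 0.0917) and without any one of 9 libraries (cortex B, C, D, E and F and cerebellum 1, 3, 4 and 5, adjusted p from 0.05001 to 0.136 from limma). It was also lost with the cortex fitted alone, with each region centred on its median and with the trend on length and GC content removed (adjusted p from 0.0510 to 0.122 from limma). Aminoacyl-tRNA synthetases, several of which ATF4 also drives, had 0 DEGs of 12 in either region by limma, with medians of 0.03 and 0.06 and an unadjusted p under 0.05 for 3 in the cortex and 2 in the cerebellum.

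In the eIF2 pathway list, Eif2ak2 was the DEG of the cerebellum. It encodes PKR, the eIF2 kinase that binds double-stranded RNA. Its normalized counts were 389, 397 and 377 in WT and 489, 539 and 519 in SCA1 KI cerebellum, all above WT (LFC 0.41, adjusted p = 0.0184 from limma, standard error 0.090). The call was lost without SCA1 KI library 3, SCA1 KI library 5 or WT library 6 (LFC 0.38 to 0.40, adjusted p from 0.0696 to 0.0928 from limma). In the cortex Eif2ak2 had an LFC of 0.23 (adjusted p = 0.109 from limma), and the interaction term did not pass (adjusted p = 0.457 from limma). The other 12 genes of the list, among them the remaining eIF2 kinases, the eIF2 and eIF2B subunits and the phosphatase subunits that reverse the signal, held no DEG in either region.

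Spcs3, a subunit of the signal peptidase that trims proteins entering the ER, was the DEG of the translocation list. It was at 4620, 5579 and 4995 normalized counts in WT cortex and at 3620, 3530 and 3505 in SCA1 KI cortex, all below WT (LFC −0.51, standard error 0.073, adjusted p = 4.46e-04 from limma). The cerebellar LFC of Spcs3 was −0.0021, and the difference between the regions passed (−0.51, adjusted p = 0.00916 from limma). Hspd1, the mitochondrial chaperonin, was the DEG of the mitochondrial list, at 5130, 5927 and 5352 normalized counts in WT and 6958, 6434 and 6174 in SCA1 KI cortex (LFC 0.25, adjusted p = 0.0282 from limma). This call was lost without SCA1 KI library A or E or WT library B or D (LFC 0.21 to 0.26, adjusted p from 0.0530 to 0.0981 from limma). It was also lost with the cortex fitted alone (adjusted p = 0.0881 from limma) and with the trend on length and GC content removed (LFC 0.21, adjusted p = 0.0857 from limma). Hspd1 has processed pseudogenes in the annotation that could take or lend reads. ER-associated degradation (15 tested) and the further sensors (8 tested) had no DEG in either region by limma, with 4 and 0 genes at an unadjusted p under 0.05 in the cortex and 2 and 1 in the cerebellum. Atf6b, the paralog of Atf6 and named here after its values were seen, was at 2102 to 2492 normalized counts in WT and 2017 to 2269 in SCA1 KI cortex (LFC −0.09, 95% interval −0.28 to 0.09), overlapping groups.

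The sequences that the ER stress transcription factors are known to read were looked for in the 250 bases before each RefSeq start (GRCm38.p6), on both strands. They were the ER stress element ERSE (CCAAT and CCACG with 9 bases of any kind between them), bound by ATF6 and XBP1 with NF-Y, the related ERSE-II (ATTGG and CCACG with 1 base between them), the element UPRE (TGACGTGG) and the core of the ATF4 element CARE (TGATGNAA). Of 32851 mouse promoters, 0.113% held an ERSE, 0.0304% an ERSE-II, 0.563% a UPRE and 3.45% a CARE. Promoters were matched for 8 of the 9 members (9 promoters, with Atf5 having 2), and Atf6 had no entry. Among the members the Herpud1 promoter was the one with a match: an ERSE-II from −52 to −42 and a CARE on the other strand from −112 to −105, counted from the base before the start as −1. Herpud1 is shown with the 2 promoters of the other genes named above that held a match, Hspa5 with an ERSE from −65 to −47 and Pycr1 with a CARE from −103 to −96, so that targets of the ATF6 and XBP1 arm and of the ATF4 arm can be set beside their values. Each is read 5′ to 3′ on the strand of its gene, with the matched elements in capitals, and lies at chr8:94386179-94386428 (plus strand), chr2:34771840-34772089 (plus strand) and chr11:120643749-120643998 (minus strand).
Herpud1: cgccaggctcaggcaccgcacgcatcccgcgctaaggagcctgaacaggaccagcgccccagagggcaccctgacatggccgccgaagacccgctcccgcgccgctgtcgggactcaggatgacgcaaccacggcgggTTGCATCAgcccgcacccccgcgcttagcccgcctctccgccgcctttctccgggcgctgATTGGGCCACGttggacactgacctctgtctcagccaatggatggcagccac
Hspa5: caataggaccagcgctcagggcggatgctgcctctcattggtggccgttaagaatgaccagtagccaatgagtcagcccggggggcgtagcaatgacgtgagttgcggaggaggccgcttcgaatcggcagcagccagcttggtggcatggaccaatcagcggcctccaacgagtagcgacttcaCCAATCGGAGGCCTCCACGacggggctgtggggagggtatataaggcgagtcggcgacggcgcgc
Pycr1: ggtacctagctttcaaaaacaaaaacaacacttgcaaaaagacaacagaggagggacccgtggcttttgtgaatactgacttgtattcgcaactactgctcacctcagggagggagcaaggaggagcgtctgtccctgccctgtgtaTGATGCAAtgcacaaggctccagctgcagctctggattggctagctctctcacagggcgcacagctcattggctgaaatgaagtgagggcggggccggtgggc
The promoter of Herpud1 thus held elements of both arms, and its gene had an LFC of −0.33 in the cortex that missed the threshold. Hspa5, with an ERSE, had −0.05, and Pycr1, with a CARE, had −0.66, a call lost with edgeR and with DESeq2. None of the 4 elements was found in the promoters of Sdf2l1 (−0.73), Hspd1 (0.25) or Eif2ak2 (0.23), nor in those of Ddit3 (−0.32), Atf4 (−0.28) and the other matched members. These are LFCs in the cortex, where Eif2ak2 did not pass. It was a DEG in the cerebellum (LFC 0.41). A match says that these letters are present and not that a factor was bound. Only exact matches within the 250 bases were sought, so the absence of a match does not show that a gene lacks such elements. Spcs3 had no promoter among those searched.

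Profiles over the 12 libraries were compared by the root mean square difference of log2 values after centring each gene on its mean. The 2 nearest genes to Atf6 were Prrt3 (0.083) and Kcnip3 (0.090), against a median of 0.40 over all tested genes and a spread of Atf6 itself of 0.26. Kcnip3 encodes DREAM, a calcium-binding protein of neurons. Eif2ak3 had Arhgap21 (0.054) and Arid2 (0.057) as its nearest genes, and Ern1 had Acin1 (0.060) and Zc3h11a (0.060). Eif2ak3 and Ern1 were also nearest to each other among the 9 genes (0.105). Atf4 was nearest to Fbxo45 (0.058) and Ube2g1 (0.058), and among the 9 to Herpud1 (0.112). Nearest to Ddit3 were Suds3 (0.064) and Cd320 (0.066), to Herpud1 Ankrd9 (0.089) and Rnf115 (0.095), to Xbp1 Naa35 (0.081) and Mapre2 (0.087), and to Atf5 Tubb4a (0.099) and Sgce (0.100). Trib3, whose profile was set by the regions, had Appl2 (0.176) and Plekhh3 (0.179). No other member was as near to Atf6 as these pairs were to each other, the closest being Ddit3 at 0.180. These distances describe 12 libraries in 4 groups, and much of each is the shared difference between the groups.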

How the data were processed

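Poly-adenylated RNA of 12 libraries was sequenced by the authors as paired ends, mapped with STAR to mm10, assigned to genes with featureCounts and scaled with DESeq2 (versions and annotation not given in the sources used here). The deposited signal is a normalized count per gene and library, that is reads divided by the size factor of the library. All values were whole multiples of 1 read (tolerance 0.01), so reads were recovered for edgeR 4.0.16 and DESeq2 1.42.0, used as alternatives.

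The 9 genes and the pathway and marker lists were chosen with earlier results of these data known. log2(normalized count + 1) went into a limma fit (version 3.58.1, R 4.3.3, moderated with a mean trend, 12 libraries, 4 group means) for 15369 genes with a mean of at least 10, with Benjamini-Hochberg adjustment over all of them. Calls needed an adjusted p below 0.05 and, except for the interaction, an LFC beyond 0.25 in size. The added 1 makes the LFC of rarely read genes too small. Depth was 29520855 to 51311309 reads on genes. The p-values from limma rest on a shared estimate of spread per gene, pooled over the 4 groups and moderated, between libraries labelled as replicates. Those of the cortex therefore also draw on the spread among cerebellum libraries. The genes named were the members, up to 3 DEGs with the smallest p of each pathway list and region, the 2 genes nearest to each member, and Atxn1. Hspa5 and Atf6b were added after their values were seen. Exon lengths and positions are from GENCODE vM21 (GRCm38), which matched 15009 of 15759 entries, and promoters from RefSeq. The fit was run on simulated counts with the same dispersion for all genes and changes larger than the genotype effects of the 9 genes. It therefore does not show how the fit handles effects of the sizes given here. Alternatives changed the pseudocount (0.5 or 5), the filter (none, or a mean of 100), the tool (edgeR or DESeq2) or the LFC limit (none or 1), fitted each region alone, centred each region on its median, removed a trend on length and GC content, or left out 1 library (12 fits).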

Additional observations from a re-analysis of the deposited data

Results flagged for a closer look

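The genotype effect of Atf6 differed between the regions by the interaction term. It was −0.69 in the cortex and 0.12 in the cerebellum, a difference of −0.81 (adjusted p = 5.44e-04 from limma). The cerebellar effect itself did not pass (adjusted p = 0.413 from limma) and was 0.065 without WT library 2. All 3 SCA1 KI libraries lay below WT in the cortex, as for 18.0% of tested genes. In the cerebellum all 3 lay above WT, as for 14.3% of tested genes. The difference ranged from −0.87 to −0.75 over all alternatives. Midbrain and thalamus markers also changed in opposite directions (median LFC 2.36 in the cortex and −3.49 in the cerebellum), and their part in it was not tested. A difference between regions and a difference between datasets cannot be told apart here.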

How the results depend on the processing

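No paired analysis was possible because the deposited columns carry letters or numbers of their own and not the replicate numbers of the labels. Of the 9 genes, the count of DEGs in the cortex was 3. It was 4 with DESeq2, with a pseudocount of 5 and with a minimum mean of 100. It was 1 with each region fitted on its own and 0 with a limit of 1 on the absolute LFC. With single libraries left out it was 1 to 4 (1 without WT library C, 4 without SCA1 KI library A). In the cerebellum it was 0, and 1 with the trend on length and GC content removed. The interaction passed for 1 gene, for 2 with DESeq2, for 3 (Atf6, Atf4 and Ddit3) with that trend removed and for 1 to 2 with single libraries left out (2 without cortex library A). A limit of 1 left 1 gene between the regions in each genotype. Pathway DEGs in the cortex went from 4 to 2 with each region on its own, to 2 with the trend removed, to 0 with a limit of 1 and to 8 with no limit. In the cerebellum they went from 1 to 3 with the trend removed and to 0 with a limit of 1, and to 0 to 1 with single libraries left out (0 without SCA1 KI library 3 or 5 or WT library 6). Over all genes, a limit of 1 left 323 DEGs in the cortex, 312 in the cerebellum, and 3620 in WT and 3622 in SCA1 KI mice between the regions. Leaving out single libraries gave 399 to 977 DEGs in the cerebellum (824 with all; 399 without SCA1 KI library 1, 454 without 3 and 512 without 5) and 783 to 1267 interactions (1253 with all; 783 without SCA1 KI cerebellum library 1 and 833 without 3). The causes were not tested.

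Signs that turned belonged to LFCs that did not pass. With the trend removed they were Ern1 (0.11) and Eif2ak3 (0.016) in the cortex, Trib3 in the cerebellum (0.093), Atf4 between the regions in WT (−0.040) and Ddit3 in SCA1 KI mice (−0.11). With single libraries left out, cortical LFCs ranged from −0.053 to 0.066 for Atf5, −0.041 to 0.15 for Xbp1, −0.17 to 0.063 for Ern1, −0.11 to 0.0029 for Eif2ak3 and −0.21 to 0.11 for Hspa5. Cerebellar LFCs ranged from −0.20 to 0.16 for Trib3 and −0.068 to 0.084 for Atf6b, interactions from −0.23 to 0.0028 for Ern1 and −0.28 to 0.076 for Trib3, and regional LFCs in SCA1 KI mice from −0.038 to 0.061 for Ddit3 and −0.080 to 0.025 for Xbp1. With 3 libraries per group, low counts limit Trib3 most.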

Other observations

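ER chaperones varied more among WT than among SCA1 KI libraries, a pattern noticed after the values were seen and given as a description. In WT cortex 14 of the 18 chaperone genes had their highest value in library C, where 30.5% of all tested genes did, and in WT cerebellum 13 of 18 had it in library 4, where 33.4% of all tested genes did. In SCA1 KI cortex the highest values were spread over libraries A, E and F (5, 6 and 7 genes) and in SCA1 KI cerebellum over 1, 3 and 5 (6 genes each). Xbp1 was highest in the same WT libraries, at 3509 normalized counts in C beside 3028 and 2687, and at 4143 in 4 beside 3222 and 3394. Hspa5 was at 12163 in WT cerebellum library 4 beside 8933 and 8913, and at 8539 to 8642 in SCA1 KI cerebellum. The median coefficient of variation of the chaperone genes was 10.1% in WT and 4.25% in SCA1 KI cortex, and 7.19% in WT and 1.34% in SCA1 KI cerebellum, beside 8.95%, 9.67%, 7.45% and 4.59% over all tested genes in the same order. The difference in spread was not tested. Highest values of other lists gathered in single libraries too. WT cerebellum library 4 held those of 7 of the 9 members and 10 of 14 translocation genes. Of the 23 targets of ATF4 and CHOP, 16 were highest in WT cortex library D, where 33.0% of all tested genes were. Among SCA1 KI cortex libraries, A was highest for 15 of the 23 and 6 of the 9 members, where it was for 37.8% of all tested genes.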
